A study of Mus musculus with 6 samples.

Results

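Small RNA-seq, the sequencing of short RNAs such as microRNAs (miRNAs), was compared between an ScxHt and a Control Achilles tendon of the mouse. The Control mouse had floxed Dicer alleles and no Cre (Dicer f/f). The ScxHt mouse had Cre knocked into Scx and wild-type Dicer alleles (ScxCre/+ Knock In:Dicer +/+), and the Dicer cKO mouse had the same knock-in with floxed Dicer alleles (ScxCre/+ Knock In:Dicer f/f). All mice were 4 weeks of age, and each genotype was 1 mouse, with small RNA-seq and RNA-seq libraries that carry the same sample number. ScxHt and Control thus differed in the Cre knock-in, in the floxed or wild-type state of Dicer and in the animal, which cannot be told apart, and with 1 library a side the comparison carries no test and no p-value. Cre made from Scx is active in cells that express Scx, so other cells of the tendon keep their alleles. The members were all features of the small RNA count table, scaled with the median-of-ratios size factors of the ScxHt and Control libraries, whose mean normalized count (baseMean) was above 15. These were 332 of the 2265 features, 313 with a mouse miRNA name and 19 with another gene name.

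A miRNA is cut from a hairpin transcript, first by Drosha in the nucleus and then by Dicer in the cytoplasm, and 1 arm of the hairpin is loaded onto an Argonaute protein. Bases 2 to 8 of the mature miRNA, its seed, pair with the messenger RNAs it represses. miRNA genes often lie in clusters that are transcribed together, or in introns of protein-coding hosts, and several loci can give the same mature sequence. Scx (scleraxis) is a transcription factor of the tendon lineage, and its intact allele is the source of Scx protein in a mouse with a knock-in at the other. Striated muscle has its own miRNAs, among them miR-1, miR-133, miR-206, miR-208b and miR-499, and muscle fibres join the tendon at the myotendinous junction.

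The mature sequences below belong to the abundant miRNAs that differed most between the libraries and to their relatives and neighbours that did not, with the seed (bases 2 to 8) in capitals. They were read 5′ to 3′ from RefSeq (GRCm38.p6), where 290 of the 332 features had a mature sequence. The counts are per gene and do not separate the arms, so the arm shown is the one known to be the more abundant in most tissues. The first is the muscle miRNA miR-206, followed by the miR-99/100 and miR-10 families, whose seeds differ from each other. miR-99b, a relative of miR-99a, and let-7c and miR-125b, which are encoded beside it, are shown because their levels differed less between the libraries.
miR-206-3p: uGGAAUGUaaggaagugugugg
miR-99a-5p: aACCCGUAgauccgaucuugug
miR-100-5p: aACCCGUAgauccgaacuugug
miR-99b-5p: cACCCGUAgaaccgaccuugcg
miR-10a-5p: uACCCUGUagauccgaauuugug
miR-10b-5p: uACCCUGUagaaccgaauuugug
let-7c-5p: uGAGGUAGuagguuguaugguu
miR-125b-5p: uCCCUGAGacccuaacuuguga
Counted from the 5′ end, miR-99a-5p and miR-100-5p differ at 1 of 22 bases (U16A, miR-99a first), and miR-10a-5p and miR-10b-5p at 1 of 23 (U12A, miR-10a first). miR-99b-5p differs from miR-99a-5p at 4 bases (A1C, U11A, U16C and U21C, miR-99a first), all outside the seed.

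The next group shows miRNAs with few reads, which had the lowest and the highest ratios, and the minor members of the miR-378 family. Mir135a-1 and Mir135a-2 give the same miR-135a-5p, so its reads cannot be assigned to a locus.
miR-135a-5p: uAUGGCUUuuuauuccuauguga
miR-190b-5p: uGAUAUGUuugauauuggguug
miR-378b: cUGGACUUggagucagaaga
miR-378c: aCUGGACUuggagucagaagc
miR-141-3p: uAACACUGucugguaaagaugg
miR-200a-3p: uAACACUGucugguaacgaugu
miR-667-3p: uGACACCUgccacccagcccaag
miR-1249-3p: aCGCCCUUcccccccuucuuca
miR-141-3p and miR-200a-3p share their seed and differ at 2 of 22 bases (A17C and G22U, miR-141 first). Of the 332 features, 41 had the same 3 counts as another feature, and 18 were a second name for the same position as another feature, such as mmu-mir-127 for Mir127. With each position taken once, 27 mature sequences came from 2 or more loci, and in 17 of these 27 the loci lay within 5% of each other in Control reads. Such loci may share reads and so are not separate measurements. The numbers of features called, and the counts and medians of lists, still count each locus.

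The Control library held 10986541 and the ScxHt library 8437993 small RNA counts, with size factors of 1.06 and 0.942. Each ratio below is ScxHt over Control in normalized counts, with a 95% Clopper-Pearson interval that covers counting error only, neither the variation between mice nor the error of the size factors. Following the thresholds of the study, a ratio below 0.60 is called lower and one above the reciprocal of 0.60, rounded to 2 decimals, is called higher. In all, 10 features were higher, 3.01% of those analysed, and 23 were lower, 6.93%. The balance depended on the scaling, since scaling by total counts gave 25 higher and 11 lower. The interval lay above 1 for 9 of the 10 and below 1 for 15 of the 23. It lay wholly below 0.60 for 4 features (Mir378c, Mir206, Mir99a and Mir10b), and for no feature did it lie wholly above the upper threshold. The just-included and just-excluded values were close to each other, with Mir5126 at 0.588 and Mir378a at 0.584 inside, and Mir3107 at 0.602, Mir208b at 0.603 and Mir486 at 0.603 outside. On the other side, Gm47287 was inside at 1.68 and Gm47304 outside at 1.64.

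Most features lay between the 2 thresholds, though the interval held 1 for only 142 of the 332 and lay below 1 for 109 and above 1 for 81. The median log2 ratio was -0.02, which the size factors set by centring the ratios, and it was 0.19 with total counts. The 25th and 75th percentiles were -0.30 and 0.24, and the 5th and 95th percentiles were -0.83 and 0.61. Ratios were spread most widely among features with few reads. Between 15 and 100 mean counts, 99 features had an SD of 0.64 (log2), and 17 of them were lower and 8 higher. Between 100 and 1000, 1000 and 10000, and above 10000, the SD was 0.34, 0.34 and 0.32, while the median standard error from counting was 0.11, 0.041 and 0.011. Above 100 mean counts the spread of the ratios was therefore larger than counting error, and how much of it mice of the same genotype would show was not measured. Of the 233 features above 100 mean counts, 6 were lower (Mir378c, Mir206, Mir99a, Mir10b, Mir100 and Mir378a) and 2 were higher (Gm47287 and Gm47305).

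**Figure D1:**
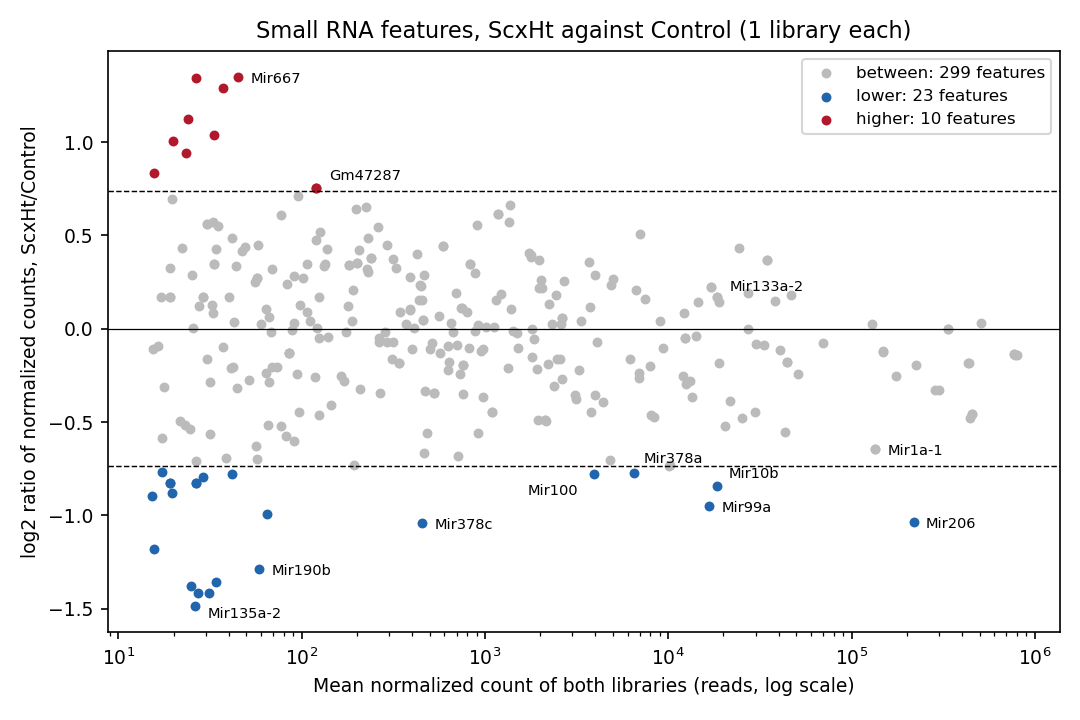
Log2 ratio of normalized counts (ScxHt/Control, vertical axis) against the mean normalized count of both libraries (log scale) for 332 small RNA features, each a point. Dashed lines mark the upper and lower thresholds (0.60 and its reciprocal). The 10 higher features all lie at or below the mean count of 120.1 of Gm47287, and the lower features reach from few counts up to Mir206, the rightmost blue point.

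The most abundant feature called lower was Mir206, the skeletal muscle miRNA gene on chromosome 1 from 20679010 to 20679082 (GRCm38), whose mature sequence is the first one printed. It had 310922 (Control), 134734 (ScxHt) and 408434 (Dicer cKO) reads. The ratio was 0.488 (95% counting interval 0.485 to 0.491), the ScxHt library being the lowest and the Dicer cKO library the highest of the 3. For Dicer cKO over Control the ratio was 1.51, and for Dicer cKO over ScxHt it was 3.03 (3.01 to 3.05). The 3 comparisons share libraries, so these values stand side by side and none repeats another.

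Other miRNA genes of striated muscle were on the same side, though short of the threshold. Mir1a-1 had 174274 (Control), 98934 (ScxHt) and 266160 (Dicer cKO) reads, a ratio of 0.640 (0.635 to 0.645), and the second locus for miR-1a had nearly the same counts. Mir208b had 256, 137 and 344 reads in the same order, with a ratio of 0.603 (0.486 to 0.745). Mir499 had 73, 42 and 103 reads and a ratio of 0.648 (0.433 to 0.960). As for Mir206, the ScxHt library had the fewest and the Dicer cKO library the most reads of each.

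The miR-133 genes did not follow. Mir133a-2 had 18418 (Control), 18362 (ScxHt) and 29599 (Dicer cKO) reads, a ratio of 1.12 (1.10 to 1.15). Mir133b, which lies next to Mir206, had 288, 243 and 358 reads and a ratio of 0.951 (0.798 to 1.13). miR-133 is, like miR-1 and miR-206, a miRNA of muscle cells, and Mir133a-2 and Mir133b are encoded in clusters with Mir1a-1 and Mir206. Of the 8 muscle miRNA features analysed, 6 had a ratio below 1, 5 had an interval below 1, 2 had one above 1, and Mir206 alone was called lower. Both loci of miR-1a were among the 5, and the 2 were the loci of miR-133a, so these counts include loci that may share reads. Of all 332 features, 52.7% had a ratio below 1, 32.8% an interval below 1 and 24.4% one above, and 6.93% were lower. The list's median log2 ratio was -0.64, against -0.02 over all 332 features. All 11 features of the list, those below the minimum count included, took 6.34% of the Control, 4.38% of the ScxHt and 11.9% of the Dicer cKO counts. These shares add both loci of miR-1a and of miR-133a, so the same reads may be counted more than once.

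The miR-378 genes were lower too. The printed miR-378b and miR-378c differ only at their ends, so reads may be shared within the family and the 3 genes are not taken as separate measurements. Mir378a, in an intron of Ppargc1b, a coactivator of oxidative metabolism, had 8663 (Control), 4493 (ScxHt) and 9014 (Dicer cKO) reads and a ratio of 0.584 (0.564 to 0.606). Mir378c had 647, 279 and 700 reads and the ratio 0.486 (0.421 to 0.560), and Mir378b had 92, 41 and 129 reads and the ratio 0.502 (0.339 to 0.733). Scaled by total counts, Mir378a was at 0.675 and no longer below the threshold. In each of the 3 the ScxHt count was the lowest, and the Dicer cKO over Control ratio was above 1 (1.19, 1.24 and 1.61). The host of Mir378a also had a low ratio in RNA-seq, with 210 (Control), 127 (ScxHt) and 301 (Dicer cKO) reads of Ppargc1b, a ratio of 0.579 (0.461 to 0.725).

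RNA-seq of the same tendons gave the muscle messenger RNAs beside these miRNAs. The 9 skeletal muscle genes took 5.68% of the Control, 3.11% of the ScxHt and 9.72% of the Dicer cKO counts, and 7 of the 9 had a ratio and an interval below 1. Their median log2 ratio was -0.80, against 0.02 over 13462 RNA-seq genes, of which 23.8% had an interval below 1 and 26.4% one above. Myh7, the myosin heavy chain of slow fibres and host of Mir208b, had 40759 (Control), 14202 (ScxHt) and 47563 (Dicer cKO) reads and was the lowest at 0.334 (0.327 to 0.340). Myh7b, host of Mir499, had 146, 54 and 163 reads and a ratio of 0.354 (0.254 to 0.487). Myh2, the myosin of fast oxidative fibres, had a ratio of 0.419 (0.411 to 0.427), and Acta1, skeletal actin, one of 0.573 (0.567 to 0.579).

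Of the genes of fast fibres, Myh4 and Mylpf lay on the other side of 1, but Myh1, also a fast myosin heavy chain, did not. Myh1 had 42160 (Control), 21113 (ScxHt) and 53596 (Dicer cKO) reads, a ratio of 0.480 (0.472 to 0.488). Myh4, the myosin heavy chain of the fastest fibres, had 8125 (Control), 39836 (ScxHt) and 49811 (Dicer cKO) reads, a ratio of 4.70 (4.59 to 4.81). Mylpf, a fast light chain, had a ratio of 1.12 (1.07 to 1.17), and Tnnt3, fast troponin T, one of 0.902 (0.874 to 0.930). The ScxHt and Control libraries thus differed in their muscle RNA by amount and by myosin gene, with fast myosins on both sides of 1. In bulk tissue, fewer cells of a type and less RNA per cell cannot be told apart, and the part of this difference in the miRNA ratios was not tested.

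**Figure D2:**
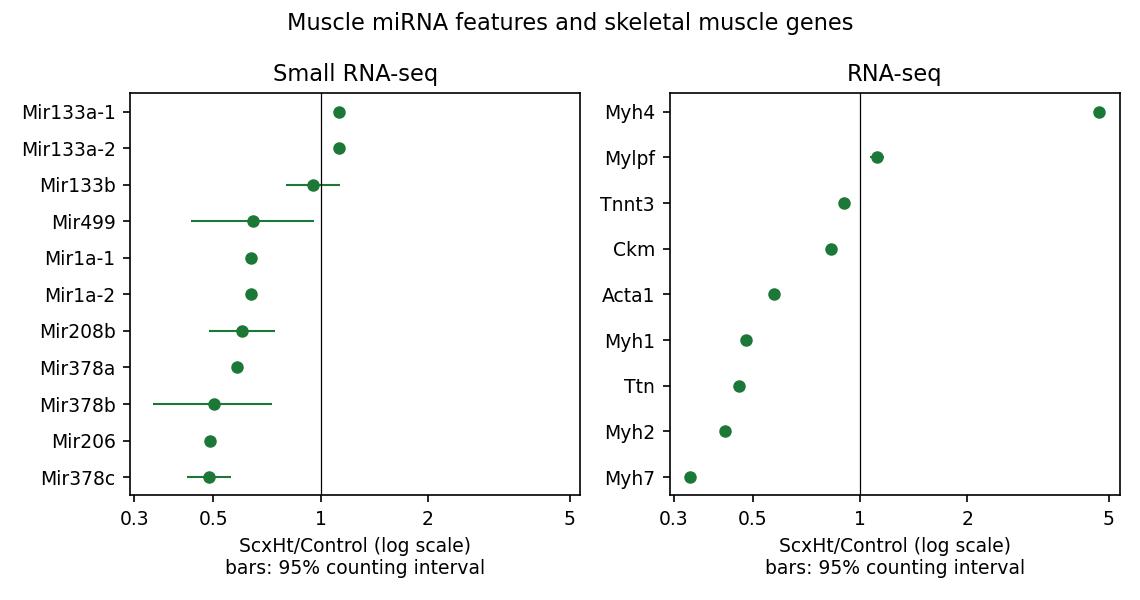
ScxHt/Control ratios (log scale) with 95% counting intervals for muscle miRNA features and the miR-378 genes in small RNA-seq (left) and for 9 skeletal muscle genes in RNA-seq (right), 1 library a side. Mir206 and the miR-378 genes lie at or below 0.584 while both Mir133a loci lie at 1.12, and the muscle genes run from Myh7 at 0.334 to Myh4 at 4.70.

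A second group of abundant lower features was made of Mir99a, Mir100 and Mir10b. The mature sequences of Mir99a and Mir100 differ at 1 of 22 bases, so their reads may be shared and they are not taken as separate measurements. Mir99a, in an intron of its host transcript Mir99ahg on chromosome 16 from 77598936 to 77599000, had 23215 (Control), 10685 (ScxHt) and 9254 (Dicer cKO) reads. Its ratio was 0.519 (0.507 to 0.531). Mir100, on chromosome 9 from 41531425 to 41531504, had 5298, 2739 and 2503 reads and a ratio of 0.582 (0.556 to 0.610). Scaled by total counts, Mir99a stayed just below the threshold at 0.599 and Mir100 did not, at 0.673. Here both libraries with the ScxCre knock-in were low and Control was high, unlike the muscle miRNAs, for which Dicer cKO was the highest.

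The third gene with this seed, Mir99b, had 15179 (Control), 13122 (ScxHt) and 11347 (Dicer cKO) reads and a ratio of 0.974 (0.951 to 0.997). Members that share the seed ACCCGUA thus had quite unequal ratios. The Dicer cKO over Control ratios of Mir99a, Mir100 and Mir99b were 0.457, 0.541 and 0.857. Between the knock-in libraries the difference was small, with Dicer cKO over ScxHt ratios of 0.866 (0.842 to 0.891) for Mir99a and 0.914 (0.865 to 0.965) for Mir100.

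Mir10b and Mir10a are encoded in the HoxD and HoxB clusters, whose homeobox genes set position along the body and limb axes. Mir10b, in an intron annotated to Hoxd4 on chromosome 2 from 74726070 to 74726137, had 24997 (Control), 12362 (ScxHt) and 13983 (Dicer cKO) reads. The ratio was 0.557 (0.545 to 0.569). Mir10a had 6331, 3451 and 3527 reads and a ratio of 0.614 (0.589 to 0.640), just above the threshold. Scaled by total counts, Mir10b was at 0.644 and above it too. For both genes the knock-in libraries were again close to each other and below Control. Their mature sequences differ at 1 of 23 bases, so reads may be shared here too.

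The miR-196 genes, which also lie among Hox genes, had ratios of 0.697 (0.684 to 0.711) for Mir196a-1, 0.717 (0.705 to 0.730) for Mir196a-2 and 0.764 (0.750 to 0.779) for Mir196b. Mir615, in an intron of Hoxc5, was the exception with 163 (Control), 226 (ScxHt) and 163 (Dicer cKO) reads and a ratio of 1.56 (1.27 to 1.92). Of the 6 Hox-cluster miRNAs analysed, 5 thus had an interval below 1, against 32.8% of all features. Of the 6, 1 was called lower, against 6.93%, and their median log2 ratio was -0.50. The 5 include both loci of miR-196a, and miR-10a and miR-10b, which may share reads, so they are not all separate measurements. The host reads were few for Hoxd4, with 61 (Control), 44 (ScxHt) and 39 (Dicer cKO) reads and a ratio of 0.691 (0.458 to 1.03). Hoxc5 had 268, 270 and 288 reads and a ratio of 0.965 (0.812 to 1.15). Hoxa9, in an exon of which Mir196b is annotated, had 390, 617 and 408 reads and a ratio of 1.52 (1.33 to 1.72), opposite in side to Mir196b.

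The neighbours of Mir99a and Mir100 did not share their low ratios. The transcript that holds Mir99a also encodes let-7c-1 and miR-125b-2, and that of Mir100 encodes let-7a-2 and miR-125b-1. Mirlet7c-1 had 871310 Control and 701702 ScxHt reads, a ratio of 0.907 (0.904 to 0.910), beside 0.519 for Mir99a. Mir125b-2 had a ratio of 0.909 (0.906 to 0.912). Mirlet7a-2 had a ratio of 1.0 (0.996 to 1.01) and Mir125b-1 one of 0.910 (0.907 to 0.913), beside 0.582 for Mir100. In the related cluster on chromosome 17, Mir99b, Mirlet7e and Mir125a had ratios of 0.974, 1.13 and 0.876. The let-7a, let-7c and miR-125b reads fit more than 1 locus and so cannot be assigned to these clusters alone. The host transcript Mir99ahg had 1718 (Control), 1778 (ScxHt) and 1609 (Dicer cKO) reads in RNA-seq, a ratio of 0.991 (0.927 to 1.06).

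Features on the same strand within 10 kb of each other were grouped into 44 clusters with 143 features. The highest ratio in a cluster was a median of 1.35 times the lowest. Of these 143 features 7 were lower, beside 6.93% of all 332 features. They were in 7 clusters, and in none of the 7 were all members lower. With so few lower features this says little about clusters. The widest cluster was that in introns of Sfmbt2 on chromosome 2, where Mir466d had 52 (Control), 18 (ScxHt) and 34 (Dicer cKO) reads and a ratio of 0.390 (0.215 to 0.678). In the same cluster Mir467d had 23, 42 and 12 reads and a ratio of 2.06 (1.21 to 3.58). Mir669c, with 581 Control and 540 ScxHt reads, had a ratio of 1.05 (0.930 to 1.18), and Sfmbt2 itself one of 0.90 (0.708 to 1.14). The best counted miRNA of the cluster and its host were thus near 1, while those with few reads lay on both sides. Many genes of this cluster are near-identical copies, so their reads may be split or shared between loci.

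**Figure D3:**
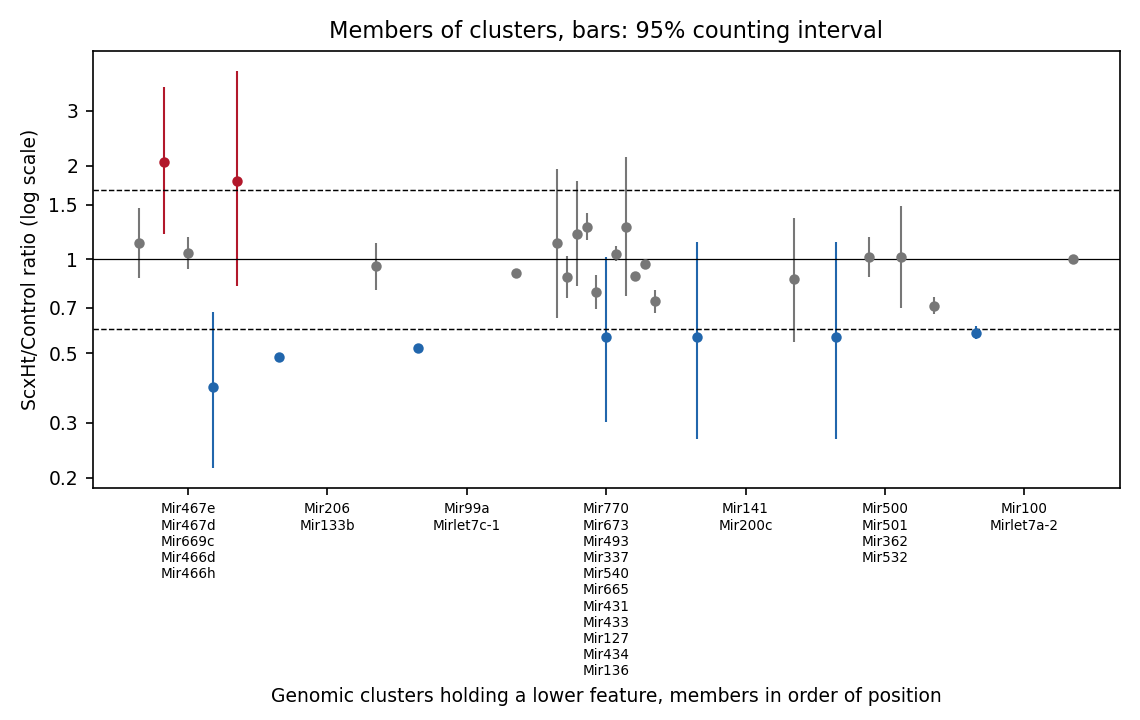
ScxHt/Control ratios (log scale) with 95% counting intervals for the members of the 7 genomic clusters that hold a lower feature, in order of position from left to right within a cluster. Blue marks lower, red higher and grey neither, and each lower feature has at least 1 neighbour in grey.

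The lowest ratios of all belonged to features with few reads. Mir135a-2, in an intron of Rmst on chromosome 10, and Mir135a-1 on chromosome 9 both had 13 ScxHt and 16 Dicer cKO reads, against 41 and 38 Control reads. The ratios were 0.357 (0.176 to 0.680) and 0.385 (0.188 to 0.740). The miR-135a reads fit both loci, so the pair is a single measurement.

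Mir3099, in an intron of the imprinted gene Usp29, had 48 (Control), 16 (ScxHt) and 27 (Dicer cKO) reads, a ratio of 0.376 (0.199 to 0.673). Mir6988, in an intron of the ubiquitin ligase gene Syvn1, had 42, 14 and 14 reads and a ratio of 0.376 (0.189 to 0.701). The Control library was the highest in both, and the Dicer cKO and ScxHt counts of Mir6988 were equal. In RNA-seq the host Usp29 had 11, 31 and 38 reads, a ratio of 2.70 (1.32 to 5.95), opposite in side to Mir3099. Syvn1 had 472, 463 and 338 reads and a ratio of 0.940 (0.825 to 1.07).

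Mir190b had 88 (Control), 32 (ScxHt) and 66 (Dicer cKO) reads, a ratio of 0.410 (0.264 to 0.620). Mir653, in an intron of the calcitonin receptor gene Calcr, had 23, 9 and 23 reads and a ratio of 0.441 (0.180 to 0.989). Mir219a-1, whose miRNA acts in oligodendrocytes, had 56, 29 and 36 reads and a ratio of 0.583 (0.359 to 0.929). For Mir190b and Mir653 the Dicer cKO over ScxHt interval lay above 1 (1.33 to 3.25 and 1.14 to 6.28), and the ScxHt library was the lowest of the 3. Both were selected for a low ScxHt count, which is also the divisor here, so this gives no separate support. Mir653 passed the minimum through Control, with normalized counts of 21.7 (Control) and 9.55 (ScxHt). For Mir219a-1 that interval held 1 (0.740 to 2.10).

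For the other 8 lower features the interval held 1, so a difference was not detectable at this depth. They were Mir129-2, Mir1941, Mir141, Mir500, the pair of names Mir665 and mmu-mir-665 for the same counts, Mir1247 and Mir5126. Mir1247, in an exon of Dio3os, had 39 (Control), 20 (ScxHt) and 6 (Dicer cKO) reads, a ratio of 0.578 (0.319 to 1.01). Its Dicer cKO over ScxHt ratio was 0.30 (0.0986 to 0.775), so ScxHt lay between the other libraries. Mir141 had 26, 13 and 14 reads, a ratio of 0.563 (0.266 to 1.14).

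For the features past a threshold, the Dicer cKO ratios to Control were set beside the ScxHt ratios. Both are divided by the same Control library, so likeness between them is not a separate result. Ratios of Dicer cKO to ScxHt reuse the ScxHt counts by which the features were called, so they are not separate results either.

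**Figure D4:**
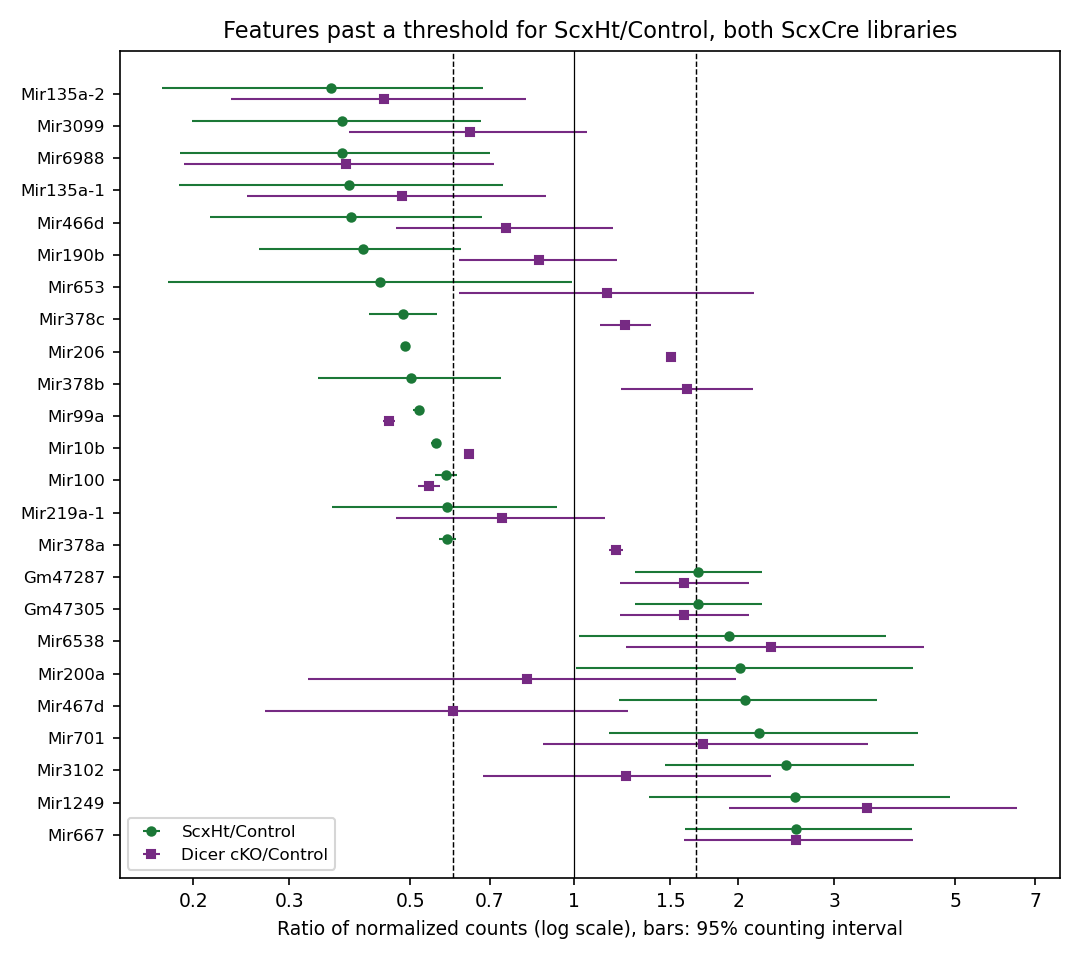
Ratios to Control (log scale) with 95% counting intervals for the 24 features past a threshold for ScxHt/Control whose interval excludes 1, in the ScxHt (green circles) and Dicer cKO (purple squares) libraries, which share the Control library. Mir99a, Mir100 and both Mir135a loci are low in both, while Mir206 and the miR-378 genes lie on opposite sides of 1.

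The higher features were all of low count. Mir667, in the large miRNA cluster of the imprinted Dlk1-Dio3 region on chromosome 12, had 27 (Control), 61 (ScxHt) and 60 (Dicer cKO) reads and the highest ratio, 2.55 (1.59 to 4.17). Mir1249 had 16, 36 and 48 reads and a ratio of 2.53 (1.37 to 4.89). Control was the lowest library for both, and the knock-in libraries did not differ beyond counting error, with Dicer cKO over ScxHt ratios of 0.984 (0.677 to 1.43) and 1.33 (0.848 to 2.11).

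Mir3102, in an exon of Arhgef17, had 23 (Control), 50 (ScxHt) and 25 (Dicer cKO) reads, a ratio of 2.45 (1.47 to 4.21). Mir200a, an epithelial miRNA gene that shares its seed with miR-141, had 14, 25 and 10 reads and a ratio of 2.01 (1.01 to 4.19). For these and Mir467d the ScxHt library was the highest of the 3, and their Dicer cKO over ScxHt intervals lay below 1. They were selected for a high ScxHt count, which is the divisor of that ratio, so the intervals give no separate support. Mir701 had 16, 31 and 24 reads and a ratio of 2.18 (1.16 to 4.27), and Mir6538 had 17, 29 and 34 reads and a ratio of 1.92 (1.02 to 3.73).

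Gm47287 and Gm47305, gene models on chromosome 12 annotated as miRNAs, shared the counts 95, 142 and 132 and a ratio of 1.68 (1.29 to 2.21). Mir466h, with 12, 19 and 12 reads, had a ratio of 1.78 (0.822 to 4.03), an interval that held 1.

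The seed partners miR-141 and miR-200a lay on opposite sides, 0.563 and 2.01, each on few reads. Among skin keratins in RNA-seq, Krt5 and Krt14 had 0 reads in both libraries, which allows up to 3 reads each. Krt10 had 1 Control and 11 ScxHt reads, and Krt1 had 0 and 1. Other epithelial miRNA genes were near 1, such as Mir203 at 1.02 (0.964 to 1.08), with 2720 Control and 2459 ScxHt reads. The 5 epithelial features analysed had a median log2 ratio of -0.01, or 0.20 with total-count scaling.

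The miRNAs that make up most of each library together took similar shares of both. The 10 most abundant features took 60.4% of the Control and 60.6% of the ScxHt counts. They were the loci of let-7c, let-7b, miR-125b, miR-199 and miR-16, and of these the miR-199 loci, typical of mesenchymal cells, were the lowest. Of the 60 features above 10000 mean counts, 42 had an interval below 1 and 15 one above, beside 32.8% and 24.4% of all features. Their median log2 ratio was -0.14. Mir199a-2 had 559555 (Control), 362563 (ScxHt) and 361918 (Dicer cKO) reads, a ratio of 0.730 (0.727 to 0.733). Mir214, encoded in the same host transcript as Mir199a-2, had 1948, 2071 and 1644 reads and a ratio of 1.20 (1.13 to 1.27).

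Among the let-7 family, which restrains growth and stem cell programmes, 12 loci ran from 0.796 (0.792 to 0.800) for Mirlet7f-2 to 1.35 (1.33 to 1.37) for Mirlet7d, with 4 intervals below and 6 above 1 (33.3% and 50% of the loci, beside 32.8% and 24.4% of all features). Family members with the same seed therefore lay on both sides of 1. The family as a whole took 35.6% of the Control and 38.2% of the ScxHt counts, with loci that may share reads each added. No let-7 locus was called higher or lower.

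Of other abundant miRNAs, Mir148a, with 54965 (Control), 33243 (ScxHt) and 30722 (Dicer cKO) reads, had a ratio of 0.681 (0.672 to 0.691). Its relatives Mir152 and Mir148b had 1.14 (1.12 to 1.16) and 1.31 (1.22 to 1.40). The Mir24 loci had a ratio of 1.29 (1.27 to 1.31). Of the 6 features of the miR-23/27/24 clusters, 5 had an interval above 1, against 24.4% of all features, and the median log2 ratio was 0.21. The 5 include both Mir24 loci, which give the same miRNA and may share reads. Mir29a, whose miRNA represses collagen messenger RNAs, had 13829, 10302 and 7624 reads and a ratio of 0.839 (0.818 to 0.861). Mir29b-1 and Mir29b-2, which share its seed, lay on the other side at 1.22 (1.07 to 1.39) and 1.18 (1.03 to 1.34), and the median log2 ratio of the 4 miR-29 features was 0.09. Mir30d and Mir30a were at 0.734 and 0.777, and Mir30c-1, of the same family, was at 1.28 (1.22 to 1.34). The 5 features of the cluster of miR-322, miR-503 and miR-450 analysed were all below 1, from 0.672 to 0.937, with 4 intervals below 1 (80%, beside 32.8% of all features) and a median log2 ratio of -0.39.

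The Dlk1-Dio3 region gave the largest list, with 59 features analysed of 66 in the table. Their median log2 ratio was 0.04 (-0.05 with a minimum baseMean of 100), 27 were below 1, 16 had an interval below 1 and 13 one above. These are 27.1% and 22.0%, near the 32.8% and 24.4% of all features. Called lower were 3 (Mir665 under both of its names, and Mir1247), or 5.08% beside 6.93% of all, and called higher was 1 (Mir667), or 1.69% beside 3.01%. With each position taken once, 46 features were left, of which 2 were lower and 1 higher. The abundant members were near 1, such as Mir127, with 49861 Control and 39081 ScxHt reads, at 0.883 (0.871 to 0.895), and Mir379 at 0.925 (0.912 to 0.937).

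**Figure D5:**
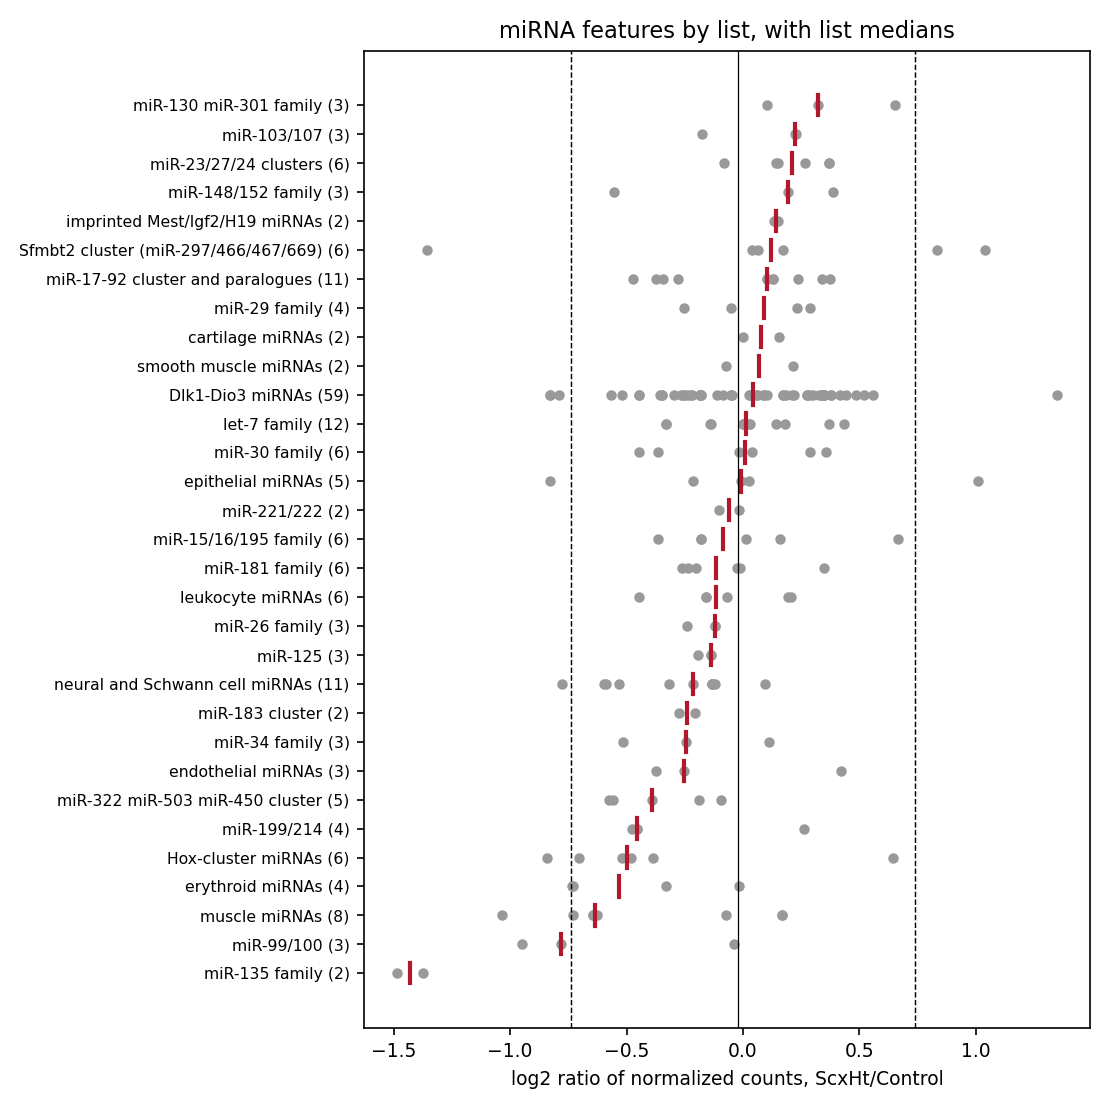
Log2 ScxHt/Control ratios of the members of 31 lists of miRNA features (grey points, number analysed in brackets), with each list's median in red. The thin line is the median of all 332 features and the dashed lines are the thresholds; the medians run from -1.43 for the miR-135 family to 0.32 for the family of miR-130 and miR-301.

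miRNAs of other cell types were set beside marker messenger RNAs of the same tendons. All 7 tendon fibroblast genes were measured, among them Tnmd with 10586 Control and 15431 ScxHt reads, a ratio of 1.40 (1.36 to 1.43). Scx itself had 1055 (Control), 686 (ScxHt) and 371 (Dicer cKO) reads, a ratio of 0.623 (0.565 to 0.686). Col1a1 was at 0.703 (0.701 to 0.705), and the median log2 ratio of the 7 was 0.11. Scx was thus lower in the tendon that carries the knock-in at its locus. Of the 7 tendon genes, 4 had an interval above 1 and 3 one below, beside 26.4% and 23.8% of all RNA-seq genes.

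Macrophage genes were higher in the ScxHt library, all 6 with an interval above 1, from 1.53 for Cd68 to 1.87 for Cd163. Over all RNA-seq genes, 26.4% had an interval above 1. Mir511, in an intron of the macrophage gene Mrc1, had a ratio below that of its host. It had 34 (Control), 27 (ScxHt) and 3 (Dicer cKO) reads, a ratio of 0.895 (0.519 to 1.53), and Mrc1 had 1645, 2882 and 1218 reads and a ratio of 1.68 (1.58 to 1.78). The myeloid Mir223 was at 1.16 (1.12 to 1.20), the lymphoid Mir150 at 0.953 (0.912 to 0.996) and the pan-leukocyte Mir142 at 0.895 (0.864 to 0.927), and the median log2 ratio of 6 leukocyte features was -0.11, which total-count scaling turned to 0.09.

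All 5 endothelial genes had an interval below 1, beside 23.8% of all RNA-seq genes, from 0.612 for Cdh5 to 0.743 for Pecam1. Mir126a, the endothelial miRNA in Egfl7, had 201949 (Control), 150234 (ScxHt) and 180654 (Dicer cKO) reads, a ratio of 0.838 (0.833 to 0.844), beside 0.652 (0.577 to 0.735) for Egfl7. Mir139, in an intron of Pde2a, lay on the other side at 1.34 (1.10 to 1.63), while Pde2a was at 0.695 (0.576 to 0.837). Of the 3 endothelial miRNA features analysed, 2 thus had an interval below 1 and 1 had one above, beside 32.8% and 24.4% of all small RNA features. Of the cartilage pair, Mir140 had 29002, 25733 and 19817 reads and a ratio of 1.0 (0.983 to 1.02), while its host Wwp2 had 1323, 3138 and 1332 reads and a ratio of 2.27 (2.13 to 2.42). Host and miRNA thus lay on the same side for Mir126a, on opposite sides for Mir139 and apart for Mir140.

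Of the erythroid genes, Mir486 had 13513 (Control), 7237 (ScxHt) and 10076 (Dicer cKO) reads, a ratio of 0.603 (0.586 to 0.621). Its locus lies in an intron of Ank1, at 0.706 (0.640 to 0.778), and Mir3107, which is also named miR-486b, had nearly the same counts. Mir451a, the defining miRNA of red cells, was at 0.794 (0.696 to 0.905) and Mir144 at 0.988 (0.796 to 1.23). The globin messenger RNAs ran from 0.742 for Hbb-bt to 0.988 for Hba-a2, and Alas2, the first enzyme of heme synthesis in red cells, was at 1.24 (1.02 to 1.51). miR-486 is also made in muscle, from the same gene, and its reads do not tell the cell types apart. Of the remaining marker lists, 3 of 4 adipocyte genes had an interval above 1 and 1 had one below, and cartilage genes had 2 below and 2 above. Smooth muscle genes had 1 of 3 below, and no interval of the 3 Schwann cell genes analysed excluded 1. Over all RNA-seq genes, 23.8% had an interval below 1 and 26.4% one above.

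The remaining miRNAs that the study names for Dicer cKO tendons were Mir34b, Mir184 and Mir219a-2. Mir34b had 29 (Control), 18 (ScxHt) and 6 (Dicer cKO) reads, a ratio of 0.699 (0.366 to 1.30). Mir184 had 82 Control and 51 ScxHt reads and a ratio of 0.701 (0.484 to 1.01). Mir219a-2 had 52, 37 and 21 reads and a ratio of 0.802 (0.511 to 1.25), beside 0.583 for Mir219a-1. None of the 3 was past the threshold.

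Among features without a miRNA name, the annotation lists Snord43, a small nucleolar RNA by name, at 0.631 (0.551 to 0.722) with 607 Control and 340 ScxHt reads. The transfer RNA names n-TSaga9 and n-TStga1 were at 0.709 and 0.713, with 2667 and 2633 Control reads. Gm24245 and Gm24270, with 988 Control reads each, were at 1.53. Mature sequences of features called higher had a median GC content of 64.4% over 12 arms, those called lower 50% over 39 and the others 47.8% over 491. Every annotated arm was counted, such as several of Mir3102 among the higher and those of Mir665 under both its names among the lower. The arms are thus not separate values, and which of them were read is not known.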

How the data were processed

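Total RNA of Achilles tendon was sequenced as small RNA and as paired-end RNA-seq libraries. Per the submitters' processing notes and the study's methods, the authors trimmed adaptors, used TopHat and Bowtie2 for mapping (GRCm38) and HTSeq for raw counts per gene. Versions and annotation release are not given in the sources used here. The deposited small RNA and RNA-seq counts were used as deposited. The deposited length-scaled values per library were not used, and 0 columns belonged to other series. Size factors were estimated with DESeq2 1.42.0 in R 4.3.3 on each pair of libraries, and ratios and exact intervals with scipy 1.17.1 in Python 3.11.15. Minimum baseMeans were 15 (small RNA) and 50 (RNA-seq), the latter not applied to host genes or to single marker genes. Positions and hosts came from GENCODE vM21. Members and lists were chosen with earlier results of these data known. Named features were those past a threshold, the 10 most abundant, list members, miRNAs the study names, hosts and markers. List members were matched by symbol or older RefSeq symbol, and 3 symbols were corrected after the counts were seen. Single values of some genes may be left out. Counts were also simulated with counting error only and no variation between mice. All 30 features raised and all 30 lowered 3-fold were recovered, and 3 of 273 unchanged features passed a threshold. Intervals covered the true value in 89.8% (97.0% with known scaling). These values check the calculation and give no rate of false calls between mice. Alternatives covered scaling, minimum, thresholds, a pseudocount and repeated loci.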

Additional observations from a re-analysis of the deposited data

How the results depend on the processing

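Scaling by total counts moved all log2 ratios by 0.21, to 25 higher and 11 lower features, of which 10 and 11 were among those reported, and scaling by totals without features above 1% of a library gave 15 higher and 14 lower. A minimum baseMean of 5 gave 29 higher and 43 lower, one of 100 gave 2 and 6, and no minimum gave 163 and 191. Thresholds of 2 and 0.5 gave 6 and 9, and requiring the whole interval past the threshold gave 0 and 4. TMM scaling (edgeR 4.0.16), size factors over all 3 libraries or from Mir genes, a pseudocount of 1, counting identical loci once and, added after the data were seen, 1 locus per mature sequence left both counts within 1.5 times. Another scaling moves all log2 ratios alike, here by at most 0.21, which is too little for any called feature to change direction. Of 31 list medians, 10 changed sign under another scaling or minimum. Counts do not show a fall shared by all miRNAs, since size factors centre each pair. No paired analysis was possible because each genotype had 1 library.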
